A study of Mus musculus with 6 samples.

Results

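The expression of 7 adrenergic receptor genes, Adra1a, Adra1b, Adra1d, Adra2a, Adra2b, Adra2c and Adrb1, was examined in mouse forebrain RNA. The members were chosen by gene symbol, and each of the 7 had 1 row among the 23282 entries of the count tables. The samples were single forebrain hemispheres, freed of olfactory bulb and cerebellum, of C57BL/6J male mice aged 8 to 10 weeks. In the group labelled water avoidance stress (WAS), each of 3 mice stood for 1 h on a small platform surrounded by water. The 3 mice labelled control went through that hour on the platform with no water around it, and tissue was taken directly afterwards in both groups. The labels name no transgene and no drug for either group.

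Noradrenaline reaches the forebrain mainly through axons of the locus coeruleus, a small hindbrain nucleus that is activated by stressors. Adrenergic receptors are G protein-coupled receptors of 3 classes. Alpha-1 receptors act through Gq and phospholipase C to release calcium, alpha-2 receptors act through Gi/o to lower cyclic AMP and also restrain noradrenaline release from the nerve terminals, and beta-1 receptors act through Gs to raise cyclic AMP.

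Directions are given by the sample labels. The headings of the deposited count columns begin with WC for WAS-labelled mice and with WS for control-labelled mice, abbreviations that the sources used here do not define. With the labels exchanged, each direction below would be the opposite one. Where 3 values are given for a group, they stand in the order of replicates 1, 2 and 3. The library totals lay between 9248520 and 10502029 counts. The libraries also differed in the levels of marker genes of forebrain regions. The summed level of 8 striatal marker genes was 129 and 290 CPM (counts scaled to a common library total of 1000000) in WAS replicates 1 and 3, against 1553 CPM in WAS replicate 2 and between 775 and 1093 CPM in the control libraries. Of these markers, Gpr6 had 0 counts in all libraries and Drd2 had 1 count in 1 library, so that a low count in these tables does not show that a gene is silent. Pan-neuronal markers such as Snap25 and Syt1 were abundant in each library, and the summed level of the 5 neuronal markers was 4297 to 5009 CPM in the WAS-labelled libraries against 5112 to 5682 CPM in the control-labelled libraries.

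Because QuantSeq 3′ mRNA-Seq is primed at the poly(A) tail, the values of each receptor gene come from the end of its transcript. The last 30 bases of the longest coding transcript of each gene in GENCODE M21 (GRCm38, the mm10 build named in the submitters' processing notes) are shown to let these annotated ends be compared. Read positions were not examined, so the ends that were counted may be others. They are written 5′ to 3′ in the sense of the transcript, and capitals mark the poly(A) signal hexamer AATAAA or ATTAAA where 1 was found.
Adrb1, chr19:56725121-56725150, plus strand: atgtgcAATAAAgacagcagtgcagctcaa
Adra1b, chr11:43774606-43774635, minus strand: caaagtgttATTAAAgttacacttcctttg
Adra2c, chr5:35281734-35281763, plus strand: tttttttttaAATAAAcctttgtaatctaa
Adra2a, chr19:54048953-54048982, plus strand: caaatgtgaAATAAAcatgaattaagtggg
Adra2b, chr2:127367192-127367221, plus strand: tatcAATAAAggctattttttaataagcaa
Adra1a, chr14:66729955-66729984, plus strand: aaaaagccaccgttggcaccgttgctaatg
Adra1d, chr2:131545850-131545879, minus strand: tcggatccaaaactctgaccagggtggctg

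The annotated ends of Adrb1, Adra1b, Adra2c, Adra2a and Adra2b carried a signal hexamer that stopped 14 to 20 bases before the last base. Neither hexamer was found in these 30 bases for Adra1a or Adra1d. The absence of these letters says only that they are not in this window. For Adra1a, the 5 coding transcripts of the annotation stop at 5 different positions, and those of Adra1b and of Adra2a stop at 2 positions each. The longest transcripts of Adrb1, Adra2a, Adra2b and Adra2c have 1 exon, whereas those of Adra1a, Adra1b and Adra1d have 3, 5 and 2 exons. The last 500 bases of Adra1b share a stretch of 50 bases with Gm43469, so reads of the Adra1b end could also align there, and its counts carry this uncertainty. No such stretch was found for the other 6 genes. Adra1d overlaps the antisense gene Gm14285 outside its last 500 bases, and the sources used here do not state whether counting used the strand.

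The receptor genes spanned a wide range of levels. Because a 3′ count stands for a transcript end, CPM values were not divided by transcript length. The order of genes on this scale also depends on how well each end was primed and counted. Adrb1 had the highest level, with a mean of 71.8 CPM over the 6 libraries, above 87.5% of all entries. It was followed by Adra1b at 27.4 CPM, Adra2c at 27.2 CPM and Adra2a at 21.6 CPM. Adra1a at 3.07 CPM, Adra1d at 1.69 CPM and Adra2b at 0.871 CPM lay far lower. Adrb1 exceeded Adra1b in 6 of 6 libraries and Adra2a exceeded Adra1a in 6 of 6. The neighbours Adra1b and Adra2c could not be ordered, since Adra1b was the higher in 3 of 6 libraries, and Adra2c exceeded Adra2a in only 4 of 6. Adra1a exceeded Adra1d in 6 of 6 libraries, and Adra1d exceeded Adra2b in 4 of 6.

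**Figure D1:**
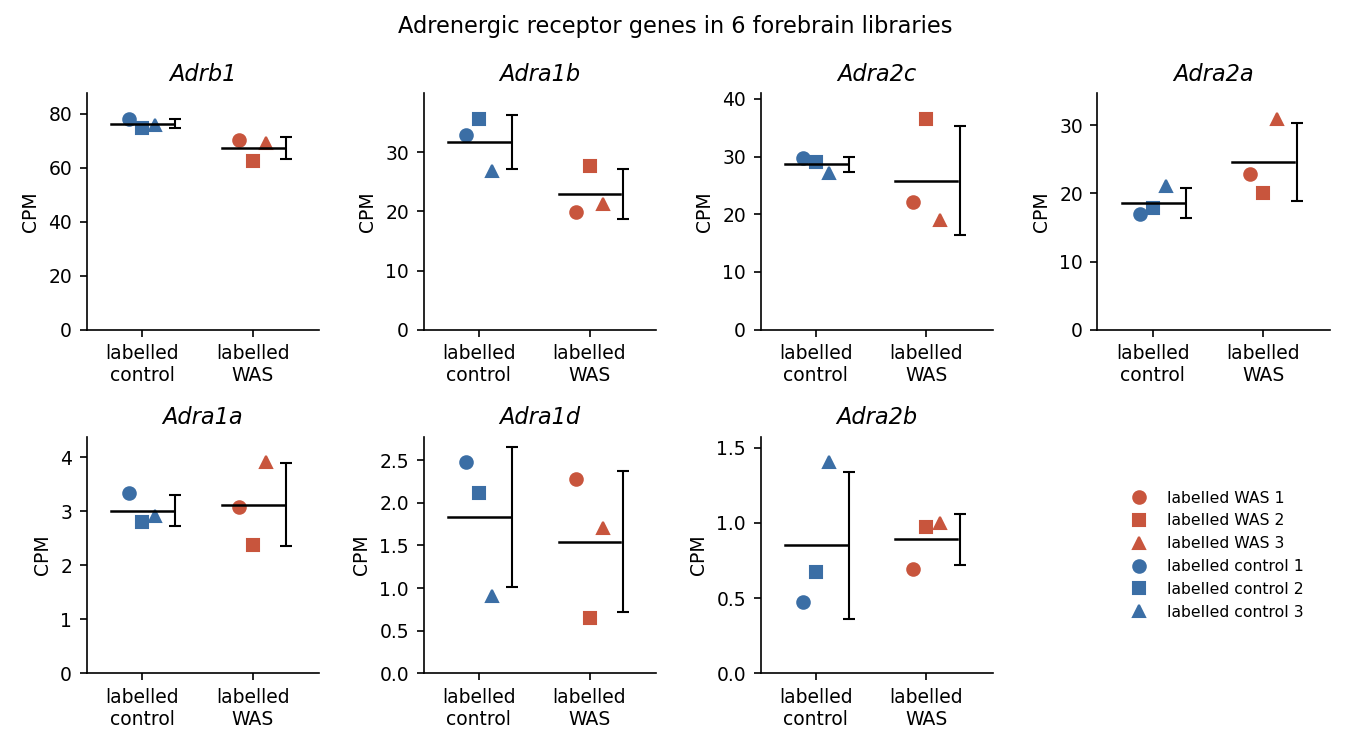
Level in CPM (vertical axes, each starting at 0) of the 7 receptor genes in each library, with circles, squares and triangles for replicates 1, 2 and 3. Horizontal lines give the group means and bars the SD over 3 libraries. Adrb1 alone has no overlap between the groups, and WAS replicate 2 lies apart from WAS replicates 1 and 3 for Adra2c.

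The rare receptors were measured with the least precision. Adra1d had 6 to 26 counts per library, for which counting alone gives a coefficient of variation of 24.1% at the mean count, and its libraries varied by 49.0% within the groups. For Adra2b, with 5 to 14 counts, the counting error was 34.0% and the spread 42.0%, and for Adra1a, with 22 to 39 counts, they were 18% and 18.8%. Adrb1, with 578 to 821 counts, has a counting error of 3.72%, and its libraries varied by 4.49% within the groups. The reads carry no molecular identifiers, so these counting errors do not cover amplification. For 3 of the abundant genes the spread within groups was also well above counting error: 24.6% against 6.06% for Adra2c, 19.9% against 6.80% for Adra2a and 16.0% against 6.03% for Adra1b. The variance of Adra2c within groups was 16.7 times that of counting error alone, where the median of all genes tested was 3.22 times.

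None of the 7 receptor genes met the study's criteria, taken here as a fold change of 1.5 or more with an unadjusted p below 0.05, which 2.49% of the 15239 genes tested met. Adra1b and Adrb1 had an unadjusted p under 0.05 by the quasi-likelihood F-test in edgeR, both lower in the WAS-labelled libraries. At that p alone, 7.24% of all genes passed in either direction, 3.85% as higher and 3.40% as lower. No receptor gene and no other gene passed an adjusted p of 0.05 by edgeR, which 22 genes passed by DESeq2, none of them a receptor gene. The log2 fold changes had a median of -0.19 over the 7 genes, with 4 below 0, against 0.00088 over all genes tested. Of all the calls at the study's criteria, 72.9% were higher in the WAS-labelled libraries, and 53.3% were higher on quantile-normalized log2 counts. A two-sided exact permutation test of a single gene over 3 libraries against 3 cannot give a p below 0.1.

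**Figure D2:**
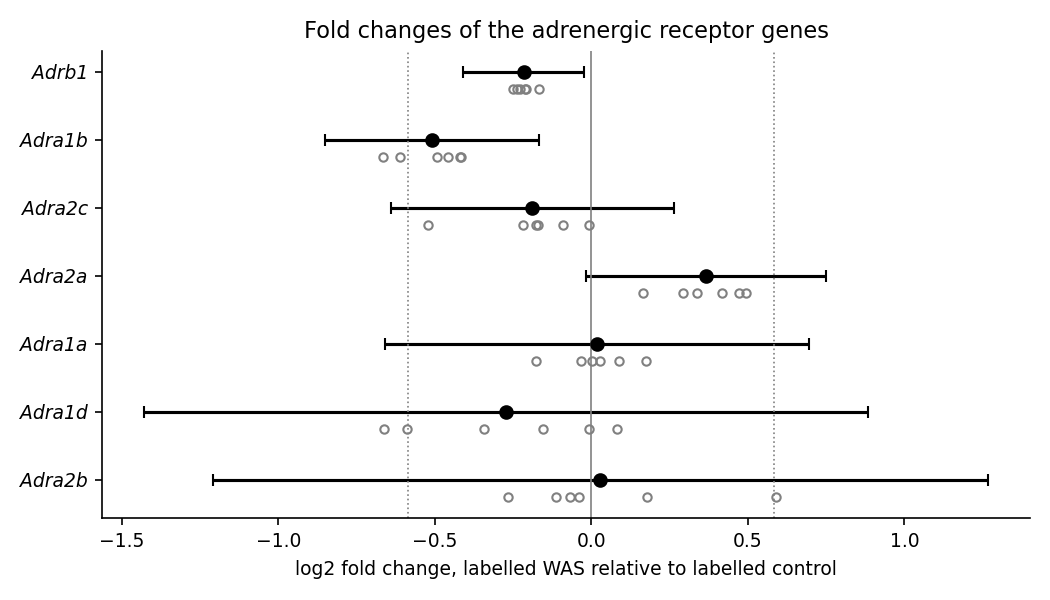
Log2 fold change of each receptor gene in the WAS-labelled libraries relative to the control-labelled libraries (horizontal axis), from edgeR. Black points and bars give the estimate from 6 libraries with its 95% interval, open grey points the 6 estimates that each leave out 1 library, and dotted lines a fold change of 1.5. The intervals of Adrb1 and Adra1b lie below 0, and those of Adra1d and Adra2b are the widest.

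Adra1b encodes an alpha-1 receptor of many forebrain neurons. It was measured at 19.9, 27.7 and 21.2 CPM in the WAS-labelled libraries and at 32.9, 35.6 and 26.8 CPM in the control-labelled libraries. The groups met at WAS replicate 2 and control replicate 3, and the other libraries labelled WAS were lower than each control library. The means were 22.9 ± 4.17 CPM (SD, n = 3) in the WAS-labelled libraries and 31.8 ± 4.56 CPM (SD, n = 3) in the control-labelled libraries. The log2 fold change was -0.51 (standard error, SE, 0.16, 95% interval -0.85 to -0.17, adjusted p = 0.539 by the quasi-likelihood F-test in edgeR). The unadjusted p from edgeR was 0.00733, and 1.30% of the genes tested had a smaller one. Without WAS replicate 2 the log2 fold change was -0.67 with an adjusted p of 0.0268 by edgeR, and Adra1b met the study's criteria. In that fit 5.41% of all genes met them, 13.7% had an unadjusted p under 0.05 and 3.22% passed the adjusted threshold. Adra1b also met the criteria without control replicate 3, at -0.61 with an adjusted p of 0.478 by edgeR, where 2.97% of all genes met them and 7.23% had an unadjusted p under 0.05.

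The level of Adra1b ran alongside that of cortical marker genes. The summed level of the 6 cortical markers, all of them tested, was 480, 568 and 448 CPM in the WAS-labelled libraries and 646, 679 and 539 CPM in the control-labelled libraries. Ordered by either quantity, the libraries gave control replicate 2, control replicate 1, WAS replicate 2 and control replicate 3 as the highest 4, and only WAS replicates 1 and 3 changed places. Among these markers, Lamp5 met the study's criteria as lower in the WAS-labelled libraries, with a log2 fold change of -0.62. The groups of the cortical sum overlapped at 448 to 568 CPM against 539 to 679 CPM, and none of the 6 markers was at 0. Fewer cells of a type and less RNA per cell cannot be told apart in these bulk samples. The part of the cortical share in the level of Adra1b was not tested. The 2 genes outside the receptor set with the pattern most like Adra1b were Far1, with a Pearson correlation of 0.994, and Lrrc4, with 0.993, of log2 CPM over 6 libraries among 9396 genes. This likeness is a description, and 216 of these genes had a correlation above 0.9 with Adra1b.

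Adra1a, a further alpha-1 gene, was at 3.08, 2.38 and 3.91 CPM in the WAS-labelled libraries and at 3.33, 2.79 and 2.91 CPM in the control-labelled libraries. The control libraries lay inside the range of the WAS-labelled libraries. Its log2 fold change was 0.018 (95% interval -0.66 to 0.70, adjusted p = 0.995 by edgeR), an interval that runs from a fold of 0.633 to a fold of 1.62. The sign of Adra1a changed under 5 of 13 alternatives. Rasa3 with a correlation of 0.984 and Nfib with 0.975 had the most similar pattern.

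Adra1d, the alpha-1 gene with the lowest level, had 23, 6 and 17 counts in the WAS-labelled libraries and 26, 22 and 9 in the control-labelled libraries. These are 2.28, 0.649 and 1.70 CPM against 2.48, 2.12 and 0.902 CPM, with 1 low library in each group. The log2 fold change was -0.27 (95% interval -1.43 to 0.88, adjusted p = 0.959 by edgeR), an interval that runs from a fold of 0.372 to a fold of 1.84. Without WAS replicate 2 the log2 fold change of Adra1d was 0.083. Spg11 with a correlation of 0.985 and B230217C12Rik with 0.982 were the genes closest to it.

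Adra2a encodes the alpha-2 receptor of much of the cortex and of noradrenergic neurons themselves. It was measured at 22.8, 20.0 and 31.0 CPM in the WAS-labelled libraries and at 16.9, 17.8 and 21.0 CPM in the control-labelled libraries. WAS replicate 3 was the highest library and WAS replicate 2 lay below control replicate 3, so the groups overlapped. Adra2a was the abundant receptor gene whose estimate was above 0, with a log2 fold change of 0.37 (SE 0.17, 95% interval -0.017 to 0.75, adjusted p = 0.702 by edgeR). The means were 24.6 ± 5.68 CPM (SD, n = 3) and 18.6 ± 2.16 CPM (SD, n = 3). Its log2 fold change was 0.17 when WAS replicate 3 was left out and was 0.49 without WAS replicate 2. The unadjusted p was 0.0592 by edgeR, and it was under 0.05 with total-count scaling, without a filter on low counts, with the replicate block, and without WAS replicate 2 or control replicate 3.

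Marker genes of the thalamus moved with the libraries in which Adra2a was highest. Their summed level was 712, 307 and 605 CPM in the WAS-labelled libraries, against 289 to 309 CPM in the control libraries, and 5 of the 8 met the study's criteria as higher in the WAS-labelled libraries, as did 1.82% of all genes tested. Among them was Tcf7l2, a transcription factor of thalamic neurons, at 234, 41.9 and 173 CPM against 36.6, 20.6 and 38.4 CPM. The order within the high pair was reversed, since WAS replicate 1 had the larger thalamic sum and WAS replicate 3 the larger Adra2a level. No marker of the thalamic list was at 0 in any library. The part of these regions in the level of Adra2a was not tested. The genes with the most similar pattern were 1810026J23Rik with a correlation of 0.998 and Hbb-bs, a beta globin gene of red blood cells, with 0.995. Hbb-bs was at 599, 499 and 833 CPM in the WAS-labelled libraries and at 441, 467 and 563 CPM in the control-labelled libraries, the same order of libraries as for Adra2a. The part of residual blood in the level of Adra2a was likewise not tested.

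Adra2c encodes the alpha-2 receptor that is known for its high expression in the striatum. Its levels were 22.1, 36.5 and 18.9 CPM in the WAS-labelled libraries and 29.7, 29.1 and 27.2 CPM in the control-labelled libraries. The control libraries lay close together, at 28.7 ± 1.33 CPM (SD, n = 3), and the WAS-labelled libraries lay on both sides of them, at 25.8 ± 9.40 CPM (SD, n = 3). The log2 fold change was -0.19 (SE 0.21, 95% interval -0.64 to 0.26, adjusted p = 0.913 by edgeR). It was -0.52 without WAS replicate 2, with an adjusted p of 0.0676 by edgeR, and -0.0088 without WAS replicate 3. With WAS replicate 2 alone set against the control libraries, a comparison chosen after seeing the data, it was 0.31.

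The striatal markers were arranged in the same way. WAS replicate 2 had the highest sum of striatal markers and the highest Adra2c level, the control libraries were in the middle, and WAS replicates 1 and 3 were lowest in both, with WAS replicate 1 below WAS replicate 3 for the markers and above it for Adra2c. The span of the markers was far wider than that of the receptor: Ppp1r1b, which encodes a phosphoprotein of dopamine-responsive striatal neurons, was at 40.1, 602 and 116 CPM in the WAS-labelled libraries, whereas Adra2c differed 1.93-fold between its highest and lowest library. Of the 8 striatal markers 6 were tested, all with a log2 fold change below 0 and none meeting the study's criteria. The part of the striatal share in the level of Adra2c was not tested. Mark1 with a correlation of 0.997 and Rab40b with 0.994 had the most similar pattern to Adra2c over the 6 libraries.

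**Figure D3:**
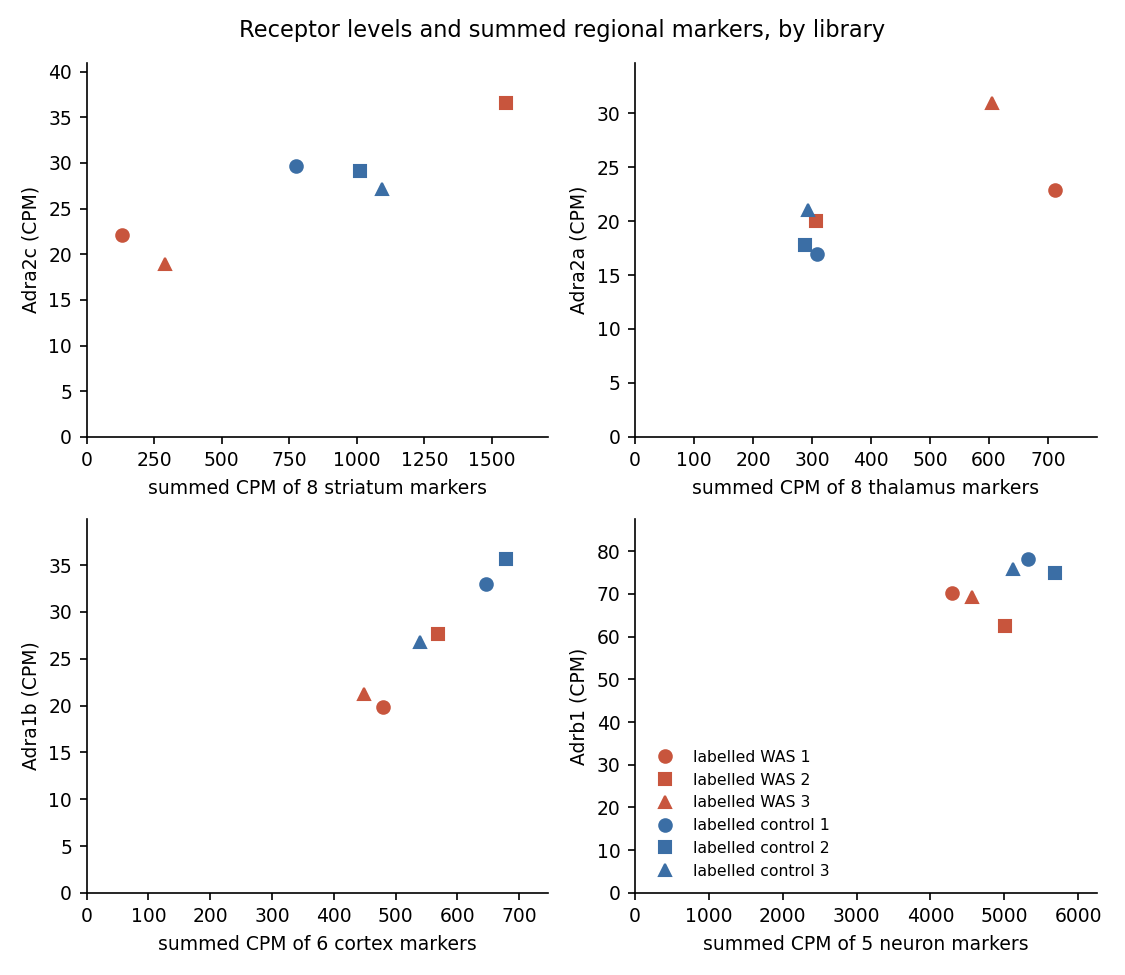
Level in CPM of Adra2c, Adra2a, Adra1b and Adrb1 (vertical axes) against the summed CPM of striatal, thalamic, cortical and neuronal marker genes (horizontal axes) in the 6 libraries; the 4 pairings were chosen after the values were seen. WAS replicates 1 and 3 lie at the low end of the striatal and cortical sums and at the high end of the thalamic sum, and WAS replicate 2 lies near or beyond the control libraries.

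Adra2b, the rarest receptor gene here, had 7, 9 and 10 counts in the WAS-labelled libraries and 5, 7 and 14 in the control-labelled libraries. The log2 fold change was 0.029 (95% interval -1.21 to 1.27, adjusted p = 0.995 by edgeR), and it ran from -0.27 to 0.59 with each library left out in turn. At this depth no statement on its direction could be made. Hdac6 with a correlation of 0.987 and Fis1 with 0.985 were closest to Adra2b.

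Adrb1, whose beta-1 receptor raises cyclic AMP in cortical and other forebrain neurons, was the receptor gene measured most precisely. Its counts were 708, 578 and 691 in the WAS-labelled libraries and 821, 778 and 756 in the control-labelled libraries. In CPM these are 70.3, 62.5 and 69.2 against 78.2, 74.9 and 75.8, and each WAS-labelled library was lower than each control library. Of the 7 genes, Adrb1 alone had groups that did not overlap, a pattern found in 12.2% of all genes tested, 8.42% being higher and 3.76% lower in the WAS-labelled libraries. The means were 67.3 ± 4.24 CPM (SD, n = 3) and 76.3 ± 1.68 CPM (SD, n = 3). The log2 fold change was -0.22 (SE 0.088, 95% interval -0.41 to -0.024), with an adjusted p of 0.643 and an unadjusted p of 0.0307 by the quasi-likelihood F-test in edgeR. The two-sided exact permutation p was 0.1, the smallest that this design allows. The interval of the fold, 0.753 to 0.983, left out a fold change of 1.5.

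The direction of Adrb1 held under each of the 13 alternatives, with log2 fold changes between -0.33 and -0.17. The unadjusted p of Adrb1 was above 0.05 without WAS replicate 2 and without each of the control libraries, as well as with DESeq2, limma and total-count scaling. WAS replicate 2 had the lowest Adrb1 level of the 6 libraries. Its striatal sum was above the control range, its cortical sum inside it and its neuronal sum, at 5009 CPM, below it. The groups of the neuronal marker sum did not overlap either, being lower in the WAS-labelled libraries. Of the 5 neuronal markers, Syt1, Rbfox3 and Slc17a7 had an unadjusted p under 0.05 by edgeR, with log2 fold changes of -0.24, -0.36 and -0.32, and 3.40% of all genes tested were lower at that p. None was at 0. The part of the neuronal share in the level of Adrb1 was not tested. Adgrl3 with a correlation of 0.999 and Cyhr1 with 0.979 had the most similar pattern.

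The classes made up different shares of the receptor counts. The 7 genes together had 141, 151 and 147 CPM in the WAS-labelled libraries and 164, 163 and 156 CPM in the control-labelled libraries, so that the sum was lower in each WAS-labelled library. The alpha-1 genes summed to 25.2, 30.7 and 26.8 CPM against 38.8, 40.6 and 30.6 CPM, with overlap between WAS replicate 2 and control replicate 3. The alpha-2 genes summed to 45.6, 57.5 and 50.9 CPM against 47.1, 47.6 and 49.6 CPM, and the WAS-labelled libraries lay on both sides of the control libraries. Adrb1 made up 46.1% ± 4.26 (SD, n = 3) of the counts of the 7 genes in the WAS-labelled libraries and 47.4% ± 1.33 (SD, n = 3) in the control-labelled libraries.

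The alpha-2 share was 35.0% ± 2.95 (SD, n = 3) in the WAS-labelled libraries against 29.9% ± 1.67 (SD, n = 3), and the groups did not overlap. The shares of the 7 genes add up to the whole, so this is no separate change from that of Adrb1 and Adra1b, and no test was made of it. Different genes carried it in different libraries. Adra2c took 24.2% of the receptor counts in WAS replicate 2 (95% Wilson interval 22.1% to 26.6%), and Adra2a took 21.1% in WAS replicate 3 (95% Wilson interval 19.1% to 23.2%). These intervals cover counting error only. The ratio of Adra2c to Adra2a was 0.965, 1.83 and 0.612 in the WAS-labelled libraries and 1.75, 1.63 and 1.29 in the control-labelled libraries. WAS replicate 2 thus resembled the control libraries in this ratio, and WAS replicates 1 and 3 lay below them.

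**Figure D4:**
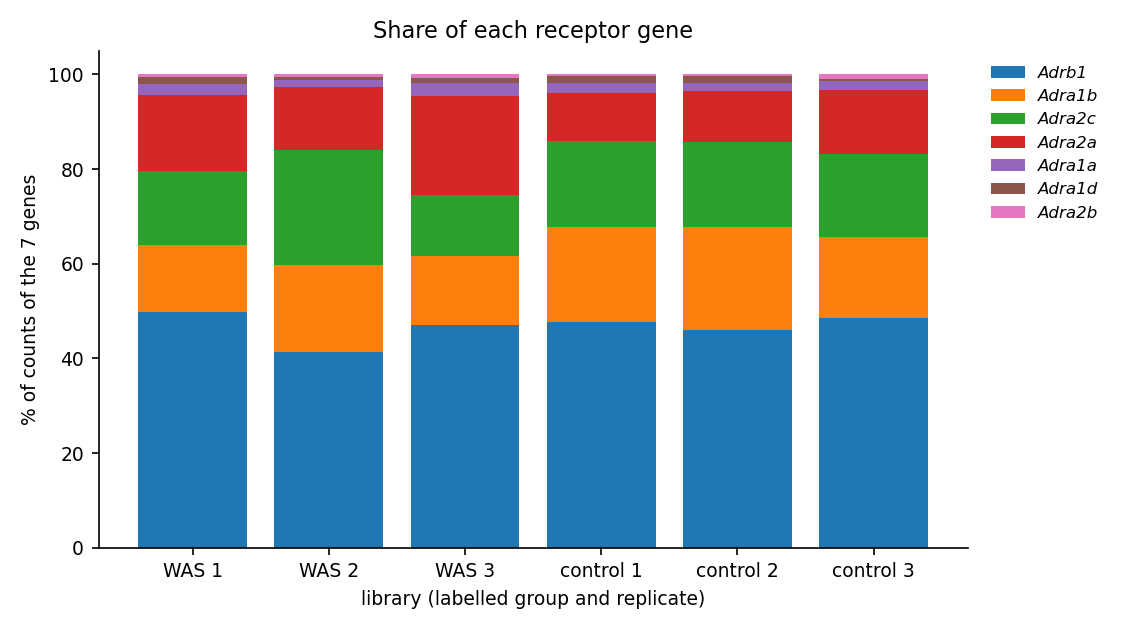
Share of each receptor gene in the counts of the 7 genes (vertical axis, %), as stacked bars for the 6 libraries. Adrb1 takes 41.5% to 49.8% in each library, and the band of Adra2c is wider than that of Adra2a in WAS replicate 2 and narrower in WAS replicate 3.

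Noradrenaline handling genes were examined next, from a list of 11 genes of synthesis, storage, uptake and breakdown, of which 8 were tested. Th, Ddc and Slc29a4 met the study's criteria as higher in the WAS-labelled libraries and none as lower, where 1.82% of all genes met them as higher and 0.676% as lower. The median log2 fold change of the list was 0.51. Th, the tyrosine hydroxylase that begins catecholamine synthesis, was at 7.45, 4.65 and 14.6 CPM in the WAS-labelled libraries against 1.24, 1.83 and 3.41 CPM, with a log2 fold change of 2.01 (SE 0.46, adjusted p = 0.477 by edgeR). Ddc, the aromatic amino acid decarboxylase shared by dopamine and serotonin neurons, was at 27.4, 14.1 and 45.7 CPM against 9.43, 9.44 and 8.12 CPM, with a log2 fold change of 1.66 (SE 0.33, adjusted p = 0.477 by edgeR). Both were highest in WAS replicate 3, and their groups did not overlap. In this list 3 genes, with Slc18a2 as the third, were higher without overlap and 0 were lower. Over all genes tested these shares were 8.42% and 3.76%.

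Markers of tissue outside the forebrain were also higher in the libraries with the most Th and Ddc. The summed level of 8 midbrain markers, a list added after the values were seen, was 28.7, 2.16 and 31.3 CPM in the WAS-labelled libraries against 0.857, 0.289 and 0.702 CPM. En1, a transcription factor of midbrain dopamine neurons, had 124, 1 and 157 counts against 0 in each control library. Lmx1a, another such factor, had 8, 16 and 9 counts against 3, 0 and 1. Of the 8 markers 1 was at 0 in all libraries and each of the others was at 0 in some. The 3 markers of serotonergic neurons, also added after the values were seen, summed to 2.38, 0.432 and 21.0 CPM against 1.24, 0.674 and 0.702 CPM, highest in WAS replicate 3. In WAS replicate 2, the midbrain sum, Th and Ddc were each the lowest of the WAS-labelled group, and each was above all control libraries. The part of midbrain tissue in the levels of Th and Ddc was not tested.

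Of the markers of noradrenergic neurons, Phox2a, a transcription factor of these cells, was at 22.1 to 33.7 CPM over the 6 libraries, and other genes of these neurons had few counts. Dbh, which turns dopamine into noradrenaline, had at most 0.802 CPM in a library and 0 counts in WAS replicates 1 and 2. Slc6a2, the noradrenaline transporter, had at most 0.801 CPM. Maoa, a monoamine oxidase that breaks down catecholamines, was at 22.6 to 30.2 CPM, with a log2 fold change of 0.14 (SE 0.13, adjusted p = 0.891 by edgeR). Slc29a4, a transporter of monoamines, was at 5.76, 4.43 and 8.71 CPM against 2.38, 1.25 and 5.51 CPM, and its groups overlapped.

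Of the signalling partners of the receptors, 0 genes met the study's criteria by edgeR with 6 libraries in either direction. The Gq arm, with 14 of 14 genes tested, had 9 log2 fold changes below 0 and a median of -0.042. The Gi/o arm, with 8 of 9 genes tested, had 7 below 0 and a median of -0.11. The Gs and cyclic AMP arm, with 19 of 19 tested, had 11 below 0 and a median of -0.10. The list of receptor desensitization, with 8 of 8 tested, had 5 below 0 and a median of -0.076. At an unadjusted p under 0.05, these lists held 3, 1, 3 and 1 genes, all of them lower in the WAS-labelled libraries, where 3.40% of all genes were lower at that p.

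In the Gq arm, Prkcb, a protein kinase C, was at 2165, 2997 and 1939 CPM against 2906, 3136 and 2513 CPM, and Prkce at 634 to 651 CPM against 621 to 674 CPM. Itpr1, the calcium release channel that alpha-1 signalling opens, was named after its values were seen. It was at 203, 366 and 214 CPM in the WAS-labelled libraries against 370, 382 and 344 CPM, with a log2 fold change of -0.52 (SE 0.18, adjusted p = 0.585 by edgeR). In the desensitization list, Rgs4, which shortens Gq and Gi/o signals, was at 435, 728 and 422 CPM against 750, 789 and 691 CPM, with a log2 fold change of -0.53 (SE 0.18, adjusted p = 0.581 by edgeR). For Itpr1, Rgs4 and Prkcb alike, WAS replicates 1 and 3 lay below each control library and WAS replicate 2 did not, as for Adra1b. Rgs2 was at 151 to 215 CPM in the WAS-labelled libraries and 161 to 205 CPM in the control-labelled libraries.

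Gnao1 and Gnai2, alpha subunits of the Gi/o proteins, were at 1364 to 1556 CPM against 1441 to 1556 CPM and at 262 to 306 CPM against 231 to 268 CPM. Gnas, which encodes the alpha subunit of Gs, was at 1786 to 2088 CPM in the WAS-labelled libraries and 1765 to 1884 CPM in the control-labelled libraries, and Prkar1a, a regulatory subunit of protein kinase A, at 655 to 751 CPM against 631 to 698 CPM. All 4 ranges overlapped. In the Gs and cyclic AMP arm, 3 of the 19 genes, named after their values were seen, had groups that did not overlap, as did 12.2% of all genes tested. Prkar1b and Adcy2 were lower in the WAS-labelled libraries, with log2 fold changes of -0.28 (SE 0.083) and -0.32 (SE 0.098) and an adjusted p of 0.539 each by edgeR. Prkaca, a catalytic subunit of protein kinase A, was at 217, 198 and 215 CPM against 193, 190 and 192 CPM, above the control libraries, with a log2 fold change of 0.095 (SE 0.078, adjusted p = 0.870 by edgeR). In the Gq arm 2 of the 14 genes were higher and 1 lower without overlap, and in the desensitization list 1 of the 8 was higher and 0 were lower. Over all genes tested these shares were 8.42% higher and 3.76% lower, so counts this small do not set the lists apart. Adcy5, the adenylyl cyclase of striatal neurons and also named after its values were seen, was at 27.2, 132 and 40.3 CPM in the WAS-labelled libraries against 72.7, 88.4 and 84.2 CPM, the arrangement of groups found for Adra2c.

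**Figure D5:**
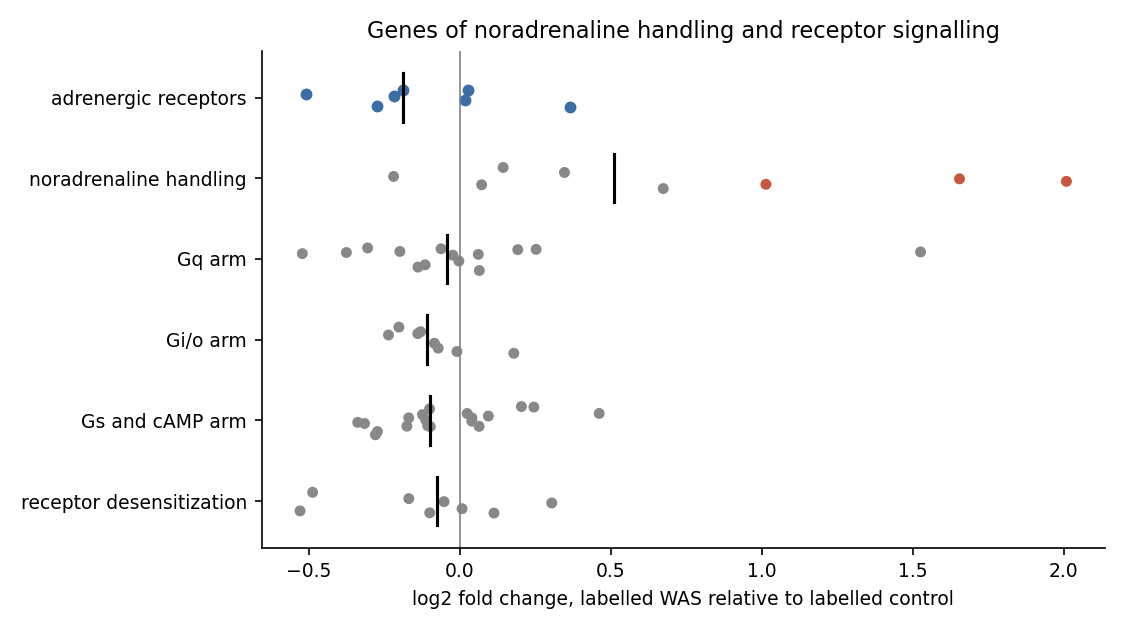
Log2 fold change in the WAS-labelled libraries relative to the control-labelled libraries (horizontal axis) of the 7 receptor genes (blue) and of the tested genes of 5 lists, with a black line at each median. Red points met the study's criteria, and they are Slc29a4, Ddc and Th of the noradrenaline handling list.

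The remaining marker lists were summed in the same way. The levels were 3424 to 3602 CPM against 3544 to 3647 CPM for 6 astrocyte genes, 2925 to 4466 CPM against 3314 to 3851 CPM for 5 oligodendrocyte genes, 167 to 198 CPM against 181 to 214 CPM for 5 microglial genes, and 137 to 161 CPM against 147 to 163 CPM for 6 endothelial and mural genes. The groups overlapped for each of these lists, and none of their genes met the study's criteria. Choroid plexus markers ranged from 16.7 CPM in control replicate 2 and 50.4 CPM in WAS replicate 1 to between 922 and 1235 CPM in the other libraries. Hippocampal markers were at 113 and 76.5 CPM in WAS replicates 1 and 3 against 36.8 CPM or less in the other 4 libraries, and 3 of the 5 met the criteria as higher, as did 1.82% of all genes tested. Hypothalamic markers were at 7.01 to 21.1 CPM against 3.18 to 49.1 CPM, cerebellar markers at 33.8 to 39.3 CPM against 35.7 to 41.0 CPM, and the 5 markers of noradrenergic neurons at 29.6 to 39.5 CPM against 29.1 to 35.3 CPM, most of it from Phox2a. These groups overlapped, and of these lists Th alone met the criteria. Nearly all of the cerebellar sum came from Pcp2 and Car8, and Gabra6 of that list had 1 count in WAS replicate 3 and 0 in each other library.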

How the data were processed

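RNA-seq libraries of 3 mice labelled WAS and 3 labelled control were analysed, 1 library per mouse. For the deposited counts, the authors sequenced QuantSeq 3′ libraries as 75 bp single-end reads, aligned them with Bowtie2 and counted both unique and multiple alignments with bedtools. The counts are whole numbers from before the authors' quantile normalization. Versions and annotation are not given in the sources used here. A symbol occurs again in 44 entries, each kept as its own row. CPM values are relative to the library total. Tests used TMM scaling (factors 0.976 to 1.01) and edgeR 4.0.16 (quasi-likelihood F-test, R 4.3.3), on the 15239 genes with a mean log2(quantile-normalized count + 1) of at least 2, with Benjamini-Hochberg adjustment over these genes. Standard errors are the log2 fold change over the square root of F. The test was checked on simulated counts. The receptor genes, the lists and the tests were chosen with earlier results of these data known. Genes named are the 7 receptors, in each pathway list the 2 of highest mean CPM plus any past the criteria, and per receptor the 2 genes of at least 10 CPM with the most similar log2(CPM + 0.5). Alternatives were total-count scaling, DESeq2 1.42.0, limma 3.58.1, other filters, the replicate block and left-out libraries. Grk2 and Grk3 are listed in the tables under older symbols. Each library is taken as 1 mouse from its label. The study's metabolite measurements were not analysed here. Some genes that this rule or the marker lists would name are not reported here.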

Additional observations from a re-analysis of the deposited data

How the results depend on the processing

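Adrb1, Adra1b and Adra2a kept their direction under all 13 alternatives. The sign of Adra1a turned with limma (-0.050), the replicate block (-0.0010), without WAS replicate 3 (-0.18), without control replicate 2 (-0.032) and with WAS replicate 2 alone (-0.38). Adra2b turned without WAS replicate 2 (-0.038), WAS replicate 3 (-0.068), control replicate 1 (-0.27) and control replicate 2 (-0.11), Adra1d without WAS replicate 2 (0.083) and Adra2c with WAS replicate 2 alone (0.31). Adra2b was not tested under filterByExpr. Leaving out single libraries gave log2 fold changes from -0.18 to 0.18 for Adra1a, -0.67 to -0.42 for Adra1b, -0.66 to 0.083 for Adra1d, 0.17 to 0.49 for Adra2a, -0.27 to 0.59 for Adra2b, -0.52 to -0.0088 for Adra2c and -0.25 to -0.17 for Adrb1. The receptor genes past the criteria numbered 0 to 1, all genes past them 264 to 825 (380 with 6 libraries) and genes past the adjusted threshold 0 to 491. The highest of each came without WAS replicate 2 (1 receptor gene, Adra1b, also without control replicate 3), and the cause was not tested. For the lists these counts were 2 to 4 for noradrenaline handling, 0 to 2 for the Gq arm, 0 to 2 for the Gs arm and 0 to 1 for desensitization. DESeq2 called 22 genes and the replicate block 49 at the adjusted threshold, against 0. Limma called 1 gene of the Gq arm and the block 1 of the Gs arm. WAS replicate 2 alone, chosen after seeing the data, gave 1 gene past the adjusted threshold and 1 each in the Gs arm, the desensitization list and noradrenaline handling (3 with 6 libraries). A lone library is assumed there to vary like the controls. The correlations of same-numbered libraries' deviations from their group means were 0.078, 0.099 and 0.093, and every library correlated best with its own number, a hint from the data and not from the design. With the block, the adjusted p of Adra1b was 0.164 by edgeR, and 0 receptor genes met the criteria. Counts of 5 to 39 per library limited Adra1a, Adra1d and Adra2b, and Adra1d also varied between libraries by more than counting error.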
